A study of Marchantia polymorpha and Arabidopsis thaliana with 40 samples.

Results

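The regions described here were those of the liverwort Marchantia polymorpha whose chromatin was more open in both lines that lack HSFB1 than in the wild type, and not in the line that lacks HSFA1 alone. They were selected on their accessibility in 16 ATAC-seq libraries of an abscisic acid (ABA) experiment. Counts were converted to CPM, the usual scaling of a count to a common library total, and averaged over the 4 libraries of a genotype. D is the log2 ratio of a mutant to the wild type, with 0.5 CPM added to both, minus the median over all regions. Regions were kept with a D of at least 0.4 in hsfb1 and in the double knockout (dko) and under 0.25 in hsfa1. This gave 855 of 53390 regions, called members below. A member was read in the 16 libraries of a heat experiment where it overlapped a region of that table by at least 50% of the shorter. Of the members 793 had such a partner, in 762 of 40873 heat regions, and 62 had none. Of the 762 heat regions, 152 also matched ABA-set regions outside the set, 188 of them in all.

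Heat shock transcription factors fall into classes. Class A factors such as HSFA1 carry an activation domain and switch on heat shock genes. Class B factors such as HSFB1 lack that domain, and in flowering plants several are known to repress transcription, partly of the same heat shock genes. ATAC-seq reads where the transposase Tn5 can insert into DNA, so a count in a region measures how accessible its chromatin was.

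The wild type was Tak-1, a male accession. The knockouts were 1 line each, a1-8 for hsfa1, b1-70 for hsfb1 and a1,b1-62 for dko, which has lost both genes. An effect of the mutated gene and any other difference between these lines cannot be told apart. Whole gemmalings, plantlets grown from asexual propagules, were collected at day 7, and 50000 sorted nuclei went into each library. In the heat experiment (batch 1 in the labels) each genotype was kept at 22 °C or held at 37 °C for 1 h. In the ABA experiment (batch 2) all gemmalings were at 22 °C and received 50 µM ABA for 2 h or 20% ethanol as mock. The titles and the count columns of that experiment name opposite treatments for the same sample, so its groups are called column ABA and column CK, as the table does, and no direction is given for the hormone. Each group had 2 libraries. The labels do not say that these came from separate cultures, so p-values measure the spread between libraries. In whole plantlets, more nuclei with an open region and more opening per nucleus cannot be told apart.

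Library totals were 21.2 to 71.2 M counts in the heat set and 32.7 to 47.0 M in the ABA set. Replicates correlated at a Spearman rho of 0.986 to 0.995 and 0.981 to 0.993. In the heat set the chi-square per region was 24.5 and 24.2 for the Tak-1 pairs and 2.44 to 9.49 for the others. It also grows with depth. At 22 °C the Tak-1 pair had 42.4 and 54.2 M counts. The dko pair at 22 °C had 43.1 and 33.9 M counts and a chi-square of 4.05. The part of depth was not tested. The lowest Spearman rho in the heat set was 0.986 for hsfb1 at 22 °C. Genes were not assigned, because the sources used here do not name the tables' genome build, and the HSFA1 and HSFB1 loci were not analysed here. Positions are printed as in the tables, which do not say whether starts count from 0 or 1.

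Values of D in the ABA set chose the members and are given without a test. The median D of the 855 members was 0.48 in hsfb1, 0.54 in dko and 0.10 in hsfa1. Most members lay close to the thresholds. The smaller of the 2 D values was under 0.5 in 586 members and 0.6 or more in 108. The nearest members inside and outside could hardly be told apart. A region on chromosome 3 from 5232619 to 5232835 was inside with a D of 0.40 in hsfb1 and means of 3.53 CPM in Tak-1 and 4.84 CPM in hsfb1. A region on chromosome 1 from 14255385 to 14255650 was just outside, with 11.7 CPM in Tak-1 and 15.6 CPM in hsfb1. Another 331 regions passed both thresholds for the lines without HSFB1 but had a D of 0.25 or more in hsfa1.

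The members were not of 1 kind. After their values were seen, they were divided into 3 classes, which serve as description and carry no test. Strong members had a D of at least 1 in both lines, and there were 18. Bright members lay among the 10% of all regions with the highest Tak-1 level per length, at 58.8 CPM per kb or more, and there were 170. The remaining 667 were called faint. Their median Tak-1 level per length was 20.3 CPM per kb, against 101.5 in bright members, 2.03 in strong members and 31.1 over all regions. Median D in hsfb1 was 3.27 in strong, 0.50 in faint and 0.43 in bright members, and in dko it was 2.53, 0.52 and 0.56. Of all 53390 regions, 50 had a D of at least 1 in both lines, and 18 of these met the condition on hsfa1.

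**Figure D1:**
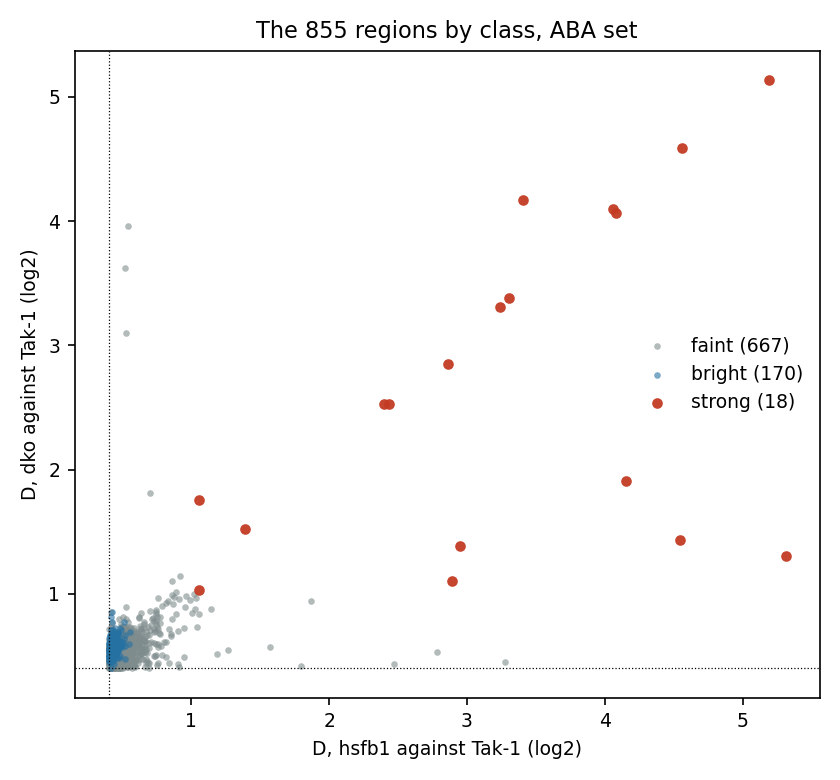
D in hsfb1 (x axis) against D in dko (y axis), both log2 differences from Tak-1 in the ABA set, for the 855 members, one point each, coloured by class, with dotted lines at the threshold of 0.4. Faint and bright members crowd at the thresholds, while the 18 strong members spread up to a D of 5.31 in hsfb1 and 5.13 in dko.

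Members were narrow. Their median width was 171 bases against 286 over all regions, and 504 of them (58.95%) were at most 200 bases wide against 37.83% of all regions. With all regions divided into 10 bins of equal size by Tak-1 CPM per kb, members made up 6.61% of the lowest bin and 3.18% of the highest, and between 0.39% and 0.71% of bins 4 to 9. The Tak-1 level is also the denominator of D, so this distribution is a description. Among the 8 autosomes, chromosome 5 held the highest share of members with 144 of 6754 regions (2.13%) and chromosome 1 the lowest with 75 of 7732 (0.97%). On the small sex chromosomes 10 of 26 regions on U and 17 of 144 on V were members. Tak-1 is male and carries V, yet the 5 bright members on U had a median of 22.9 CPM in Tak-1. How reads that match several places were treated is not given in the sources used here.

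**Figure D2:**
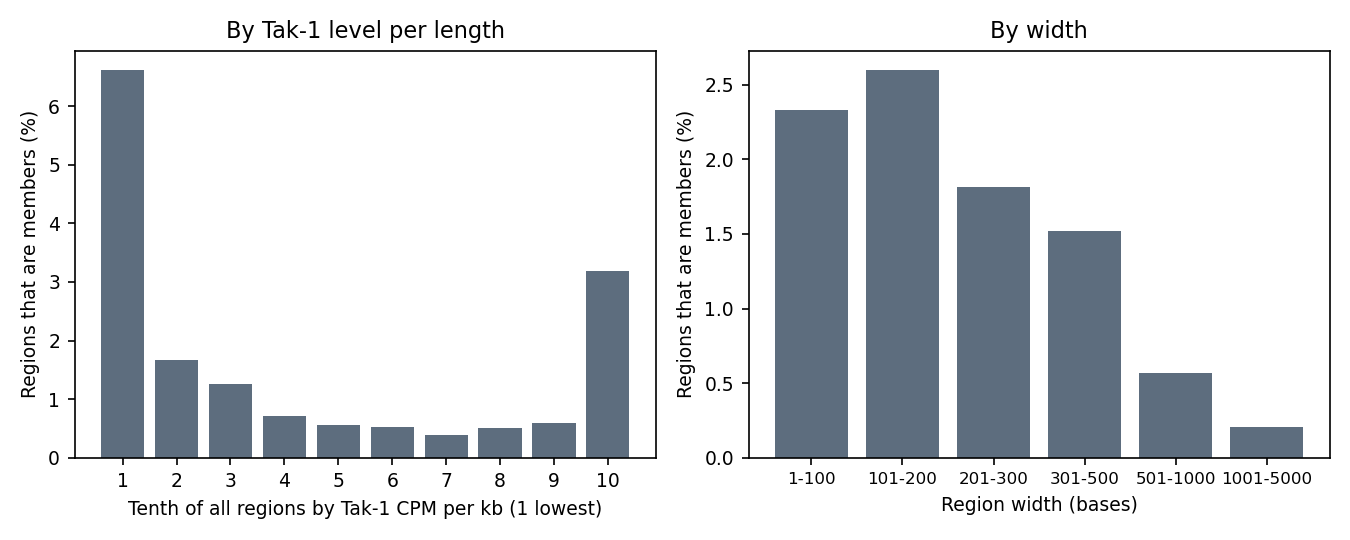
Percent of regions that were members, by bin of Tak-1 CPM per kb (left; bin 1 is the lowest of 10) and by region width in bases (right). The lowest bin stands at 6.61% and the highest at 3.18%, and the share falls to 0.21% among regions wider than 1000 bases.

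Most members stood alone. With a gap of at most 10 kb allowed, 611 were single, 75 runs held 2 members and 26 runs held 3 or more, 94 members in all. The longest run was 9 bright members among 10 regions on chromosome 6 from 6018700 to 6027009. The window of chromosome 5 from 7 to 8 Mb held 17 members among 210 regions, the most of any 1-Mb window, where the median was 3 members. Most regions next to a strong member did not share its difference. Of 32 neighbours at a median distance of 6728 bases, 25 had a D within 0.4 of 0 in both hsfb1 and dko. The nearest, at 63, 89 and 195 bases, had a D of 0.96, 0.87 and 1.62 in hsfb1 and 0.90, 0.92 and 1.76 in dko. Those at 232 and 283 bases had -0.10 and 0.22 in hsfb1 and -0.03 and 0.19 in dko. D is centred on a median of 0, and the share of all regions within 0.4 of it was not counted.

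The D values that define the strong members came from the ABA set, but the class was drawn with earlier results of these data known. Of the 18, 17 could be read in the heat set, in 15 heat regions. Where heat regions were called on given libraries, their set can favour those libraries, so the calls below are not an independent test. All 15 were higher in hsfb1 than in Tak-1 at both temperatures by the edgeR test, while in dko 14 were at 22 °C and 13 at 37 °C. Of all heat regions, the test called 17.3% higher in hsfb1 at 22 °C and 3.47% at 37 °C. For dko these shares were 6.22% and 3.45%. Summed over these 15 regions, Tak-1 had 20.7 and 26.7 CPM at 22 °C and 27.3 and 26.1 CPM at 37 °C. The hsfa1 line had 41.0, 38.8, 41.1 and 39.0 CPM in the same order. The hsfb1 line had 360.7, 385.9, 452.3 and 440.7 CPM, and dko had 290.4, 296.3, 294.1 and 299.4 CPM. In these sums every library with HSFB1 was below every library without it. Of the hsfa1 sums, 26.3, 21.0, 21.8 and 17.9 CPM lay in 1 region, on chromosome 1 from 15313547 to 15314024. The median log2 difference of hsfa1 from Tak-1 over the 15 regions was -0.21 at 22 °C and -0.44 at 37 °C.

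The member with the highest smaller D in the ABA set lay on chromosome 4, in the heat region from 9202230 to 9203395. This heat region held 3 strong members. Tak-1 had 1.15 and 1.60 CPM at 22 °C and 2.44 and 2.30 CPM at 37 °C, and hsfa1 0.95, 1.54, 1.77 and 2.79 CPM. In hsfb1 the libraries stood at 54.7, 59.0, 73.8 and 71.9 CPM, and in dko at 55.6, 60.4, 70.4 and 68.2 CPM. The groups with and without HSFB1 did not overlap. At 22 °C the log2 difference from Tak-1 was 5.36 (SE 0.17) in hsfb1 and 5.39 (SE 0.17) in dko, with edgeR quasi-likelihood adjusted p-values of 1.9e-20 and 2.4e-20. The difference between dko and hsfb1 was 0.03 (SE 0.12, edgeR adjusted p = 0.9) and did not pass the test.

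Regions of the same kind lay on other chromosomes. On chromosome 5 from 10299142 to 10299897, Tak-1 ranged from 1.29 to 2.48 CPM and hsfa1 from 1.28 to 1.99 CPM in the heat set, while hsfb1 ranged from 49.0 to 61.1 and dko from 42.9 to 53.6 CPM. On chromosome 1 from 21269739 to 21270162, Tak-1 and hsfa1 together ranged from 0.855 to 2.05 CPM, and hsfb1 and dko from 26.7 to 34.0 CPM. On chromosome 2 from 10184401 to 10184802 the first pair of genotypes ranged from 0.285 to 1.82 CPM and the second from 23.7 to 34.3 CPM. In each of these 3 regions every library without HSFB1 was above every library with it. They were named for being among the highest at 22 °C in hsfb1 and dko. How many of all heat regions separate in this way was not counted. All 3 passed the test in hsfb1 and in dko against Tak-1, and in dko against hsfa1, at both temperatures, with log2 differences of 3.92 to 5.84.

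Some strong members differed between the mutant lines that share the loss of HSFB1. On chromosome 2 from 10458106 to 10458869, hsfb1 had 51.1, 53.2, 66.0 and 65.6 CPM in the heat set. In dko the same region had 1.90, 2.85, 1.37 and 1.23 CPM, close to the 1.10 to 1.92 CPM of Tak-1. The log2 difference of dko from hsfb1 at 22 °C was -4.48 (SE 0.16, edgeR adjusted p = 1.2e-18). On chromosome 5 from 26307711 to 26308380, hsfb1 ranged from 37.4 to 50.5 CPM and dko from 1.45 to 4.46 CPM, a log2 difference of -4.36 (SE 0.21, adjusted p = 1.9e-15) at 22 °C. The opposite order was seen on chromosome 7 from 5586021 to 5586712, where dko ranged from 41.9 to 46.8 CPM, hsfb1 from 9.59 to 14.7 CPM and Tak-1 from 1.91 to 2.76 CPM. There the log2 difference of dko from hsfb1 at 22 °C was 1.63 (SE 0.12, adjusted p = 2.1e-11). Of the 15 heat regions, 5 were lower and 1 was higher in dko than in hsfb1 at 22 °C by the edgeR test. The comparison called 8.21% of all heat regions lower and 5.26% higher.

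At 1 strong member the hsfa1 line differed between the experiments. On chromosome 1 from 15313547 to 15314024, hsfa1 had 26.3 and 21.0 CPM at 22 °C and 21.8 and 17.9 CPM at 37 °C in the heat set, close to hsfb1 and dko at 26.6 to 32.7 CPM. In the ABA set hsfa1 had 1.55 to 2.30 CPM at the same place, below the 3.84 to 6.08 CPM of Tak-1. In the heat set the log2 difference of hsfa1 from Tak-1 at 22 °C was 3.09 (SE 0.15, edgeR adjusted p = 6.9e-15). The labels give the same line, a1-8, in both experiments. The region on chromosome 1 from 985122 to 985576 changed with heat in 1 genotype. In dko it had 36.7 and 37.1 CPM at 22 °C and 15.7 and 17.7 CPM at 37 °C, while hsfb1 had 36.8 and 42.7, then 45.1 and 42.4 CPM. The log2 heat response in dko was -1.14 (SE 0.13, adjusted p = 2.1e-07).

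**Figure D3:**
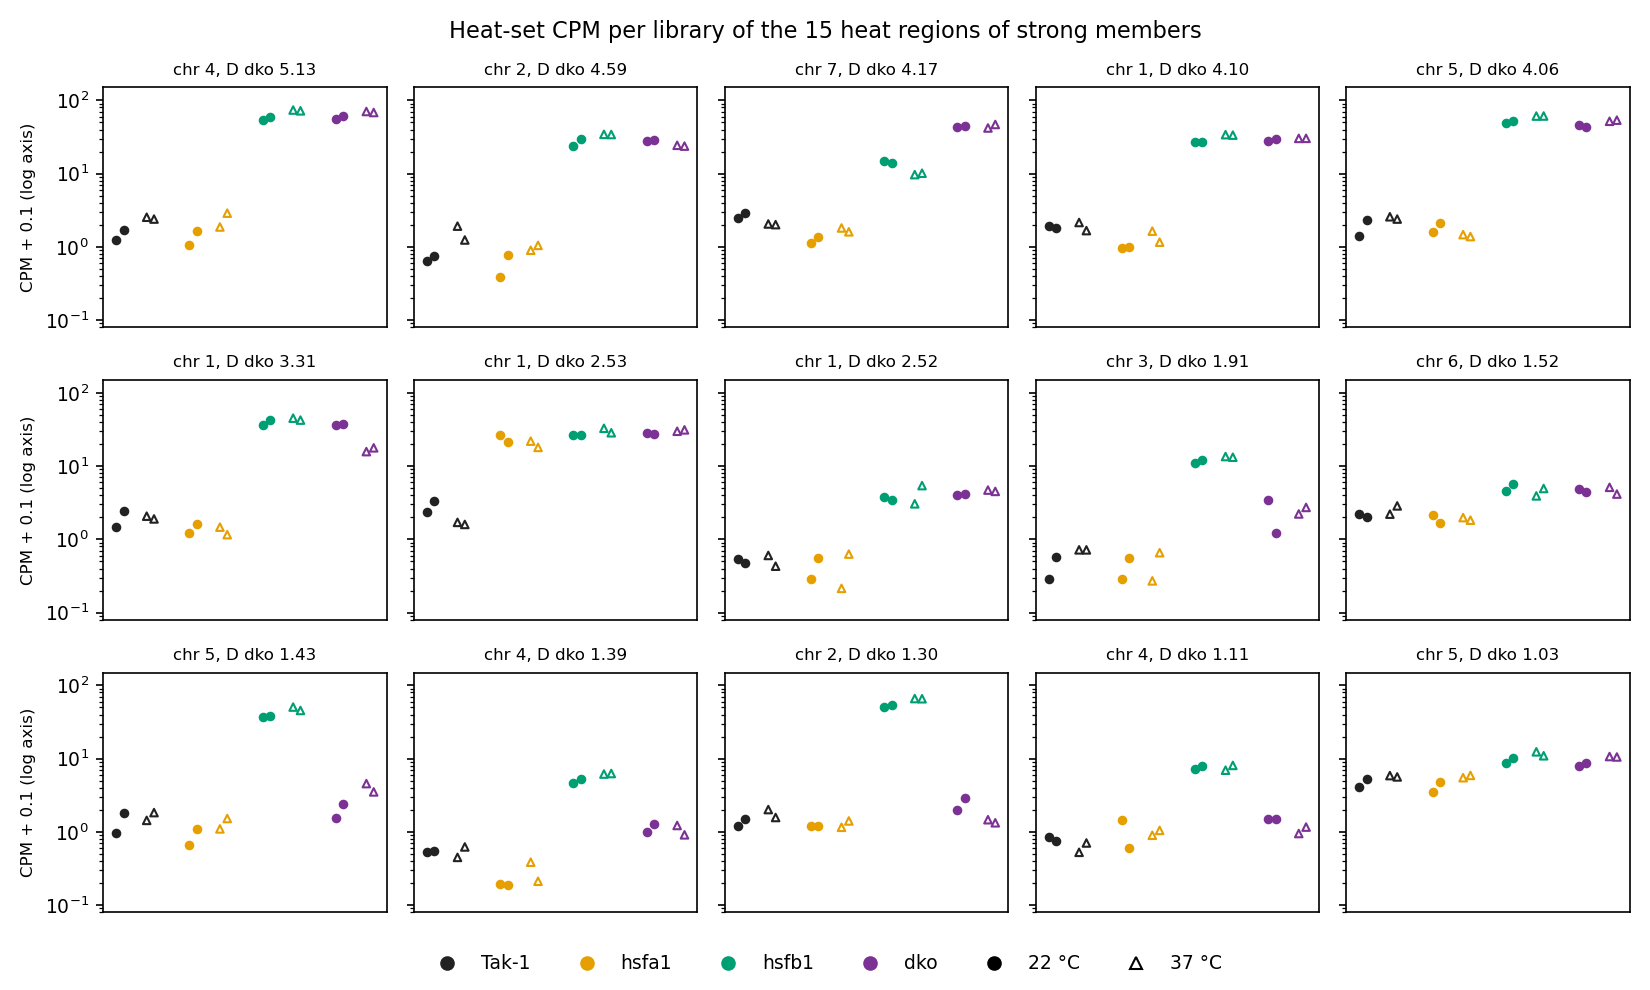
CPM plus 0.1 (log axis) in each of the 16 heat-set libraries for the 15 heat regions that hold strong members, one panel each, with filled circles for 22 °C and open triangles for 37 °C and colours for genotype. Panels run from the highest to the lowest D in dko. In the first, Tak-1 and hsfa1 lie between 0.95 and 2.79 CPM before the 0.1 is added, and hsfb1 and dko between 54.7 and 73.8 CPM.

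Among the members as a whole, hsfb1 was the line in which the direction held best in the heat set. At 22 °C, 407 of the 762 heat regions were higher in hsfb1 than in Tak-1 and 4 were lower (edgeR quasi-likelihood test, adjusted p under 0.05). The same test called 17.3% of all heat regions higher and 35.7% in either direction. The members' median log2 difference was 0.45, against 0.06 over all heat regions. By class, 15 of 15 strong, 351 of 588 faint and 41 of 159 bright regions were higher. The counts leaned on single libraries: 69 were higher without Tak-1 22 °C replicate 2 and 83 without hsfb1 22 °C replicate 2. At 37 °C, 321 were higher and 0 lower, where the test called 3.47% of all heat regions higher, 1.57% lower and 5.04% in either direction. The median was 0.51 against 0.00 over all heat regions. The 321 comprised 15 strong, 183 faint and 123 bright regions. The count was 50 without Tak-1 37 °C replicate 2, 78 without hsfb1 37 °C replicate 1 and 182 without hsfb1 37 °C replicate 2. The 15 strong regions were called in hsfb1 at 22 °C under every alternative fit and library left out, and at 37 °C at least 14 were.

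In dko the members leaned to one direction at 37 °C and were divided by class at 22 °C. At 22 °C, 160 members were higher in dko than in Tak-1 and 197 were lower by the edgeR test, which called 6.22% of all heat regions higher and 7.99% lower. The higher ones were 14 strong and 146 faint regions, and the lower ones 57 faint and 140 bright regions. The median log2 difference of all members was 0.13, against -0.01 over all heat regions, and that of the bright regions was -0.95. With counts scaled to the library total instead, 222 members were higher and 168 lower. Without Tak-1 22 °C replicate 2 the higher count was 70, and without dko 22 °C replicates 1 and 2 it was 86 and 60. At 37 °C, 176 were higher and 4 lower, against 3.45% and 8.19% of all heat regions. The median log2 difference was 0.30 against 0.00 over all heat regions. The 176 were 13 strong, 119 faint and 44 bright regions. This count was 97 without Tak-1 37 °C replicate 2, 38 and 74 without dko 37 °C replicates 1 and 2, and 95 under total count scaling.

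The line that lacks HSFA1 alone was not flat across the members at 22 °C. There 318 were higher in hsfa1 than in Tak-1 and 18 were lower by the edgeR test, where it called 13.5% of all heat regions higher and 28.8% in either direction. The median log2 difference was 0.40, near the 0.45 of hsfb1. Of the 318, 216 were faint and 101 were bright. The call of either direction, 336 in all, fell to 8 without Tak-1 22 °C replicate 2 and to 35 without hsfa1 22 °C replicate 2. At 37 °C, 7 were higher and 2 lower, against 0.247% of all heat regions higher, 1.86% lower and 2.11% in either direction, with a median of 0.04. These 9 became 14 without Tak-1 37 °C replicate 1, and 4 and 5 without hsfa1 37 °C replicates 1 and 2. At 37 °C the members' medians had the directions of the label, more open without HSFB1 and not without HSFA1 alone. They were 0.51 in hsfb1, 0.30 in dko and 0.04 in hsfa1. At 22 °C the label was not met by the members as a whole, while 14 of the 15 strong regions were higher in dko, 15 in hsfb1 and 1 in hsfa1. Both hsfb1 and dko were called higher than Tak-1 in 142 of the 762 heat regions at 22 °C, 125 at 37 °C and 46 at both temperatures. These joint counts were not made over all heat regions.

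The next comparison was between the lines that both lack HSFA1 and differ in HSFB1. At 22 °C, 73 members were higher in dko than in hsfa1 and 274 were lower by the edgeR test, which called 9.6% and 11.1% of all heat regions. The 73 were 13 strong and 60 faint regions, and the 274 were 115 faint and all 159 bright regions. The higher count was 42 without hsfa1 22 °C replicate 2 and 44 without dko 22 °C replicate 2. At 37 °C, 63 were higher and 0 lower, against 0.795% of all heat regions higher and 2.52% in either direction. They were 13 strong, 41 faint and 9 bright regions. The count was 16 without hsfa1 or dko 37 °C replicate 1, 22 without replicate 2 of either, and 30 under total count scaling. It rose to 106 without either Tak-1 22 °C library and to 100 without hsfb1 22 °C replicate 2.

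**Figure D4:**
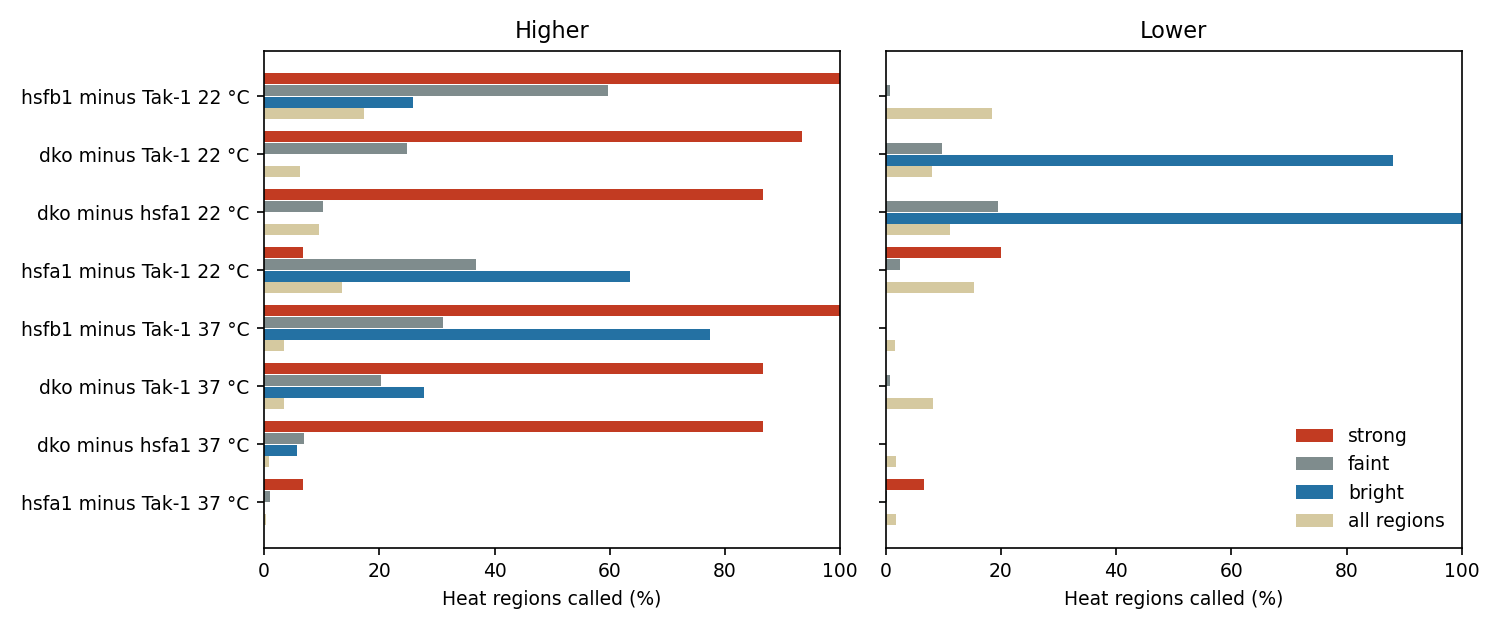
Percent of heat regions called higher (left) and lower (right) by the edgeR quasi-likelihood test for 8 genotype differences, by class of member, with all heat regions beside them. Strong regions are called higher in 86.67% to 100% of cases wherever HSFB1 is lost, while bright regions are called lower in dko at 22 °C, in 88.05% against Tak-1 and 100% against hsfa1.

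Heat regions that were higher in all 6 comparisons that remove HSFB1 numbered 20 of the 762, against 38 of all 40873 heat regions (0.093%). They were 11 strong and 9 faint regions, and 0 were bright. Several of the faint ones lay together on chromosome 5. The member from 7147103 to 7147888 there shared its heat region with 2 others. It had 12.1 and 16.1 CPM in Tak-1 at 22 °C, 18.0 and 18.2 CPM at 37 °C, and 13.0 to 17.0 CPM in hsfa1. In hsfb1 it had 24.1, 29.2, 25.4 and 27.1 CPM and in dko 22.8, 21.8, 24.7 and 24.3 CPM, so that every library without HSFB1 was above every library with it. Its log2 differences from Tak-1 were 0.92 in hsfb1 and 0.66 in dko at 22 °C, and 0.54 and 0.44 at 37 °C. A strong member of the same chromosome, from 7124554 to 7124840, had 3.42 to 5.80 CPM in Tak-1 and hsfa1 and 7.71 to 12.3 CPM in hsfb1 and dko.

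A few faint members had a large difference in 1 of the lines. The larger D was 1 or more in 22 of them, in 15 for hsfb1 and in 7 for dko. The member on chromosome 3 from 23961559 to 23961842 had 9.52 and 11.9 CPM in dko at 22 °C and 14.4 and 14.7 CPM at 37 °C. In hsfb1 it had 2.28, 2.10, 3.39 and 2.69 CPM, and in Tak-1 0.62 to 0.69 CPM. The member on chromosome 2 from 15866889 to 15867196 had 8.91 and 8.77 CPM in dko at 22 °C and 1.09 and 0.95 CPM at 37 °C, while Tak-1 and hsfb1 stayed at 0.134 to 0.515 CPM. It was open in dko in the ABA set too, at 8.07 to 9.86 CPM. The member on chromosome 7 from 17257842 to 17258186 had 13.0 and 4.06 CPM in dko at 22 °C and 1.43 and 1.73 CPM at 37 °C. Its dko replicates also differed in the ABA set, with 23.8 and 5.91 CPM in column CK and 14.1 and 7.70 CPM in column ABA. Replicate 1 was the higher one in these 3 dko pairs and the lower one at 37 °C.

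The 170 bright members shifted as a class from library to library. Their summed level in the ABA set was 8137 and 6969 CPM in Tak-1 column CK and 8137 and 5200 CPM in column ABA. In hsfa1 it was 9348 and 4859, then 9958 and 5349 CPM. In hsfb1 it was 5294 and 9314, then 14420 and 9701 CPM, and in dko 12600 and 9461, then 11080 and 9629 CPM. The hsfb1 libraries held both the highest sum and 1 of the lowest. The median difference between replicates reached 0.93 log2 in bright members, against 0.06 to 0.17 in the 5169 other regions at their level. Membership of this class rested on few libraries. Without hsfb1 column ABA replicate 1, the rule kept 0 of the 170, and without Tak-1 column ABA replicate 2 it kept 5. On the column CK libraries alone it kept 0, and on the column ABA libraries alone 133. Of the 18 strong members, 16 to 18 were kept with any library left out and 16 in each column group alone. The strong class was defined by a D of at least 1 on these same libraries, above the 0.4 of the rule. That its members stayed in the set was thus largely fixed beforehand. Of the 667 faint members, 457 to 646 were kept with any library left out, 328 on column CK alone and 353 on column ABA alone.

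**Figure D5:**
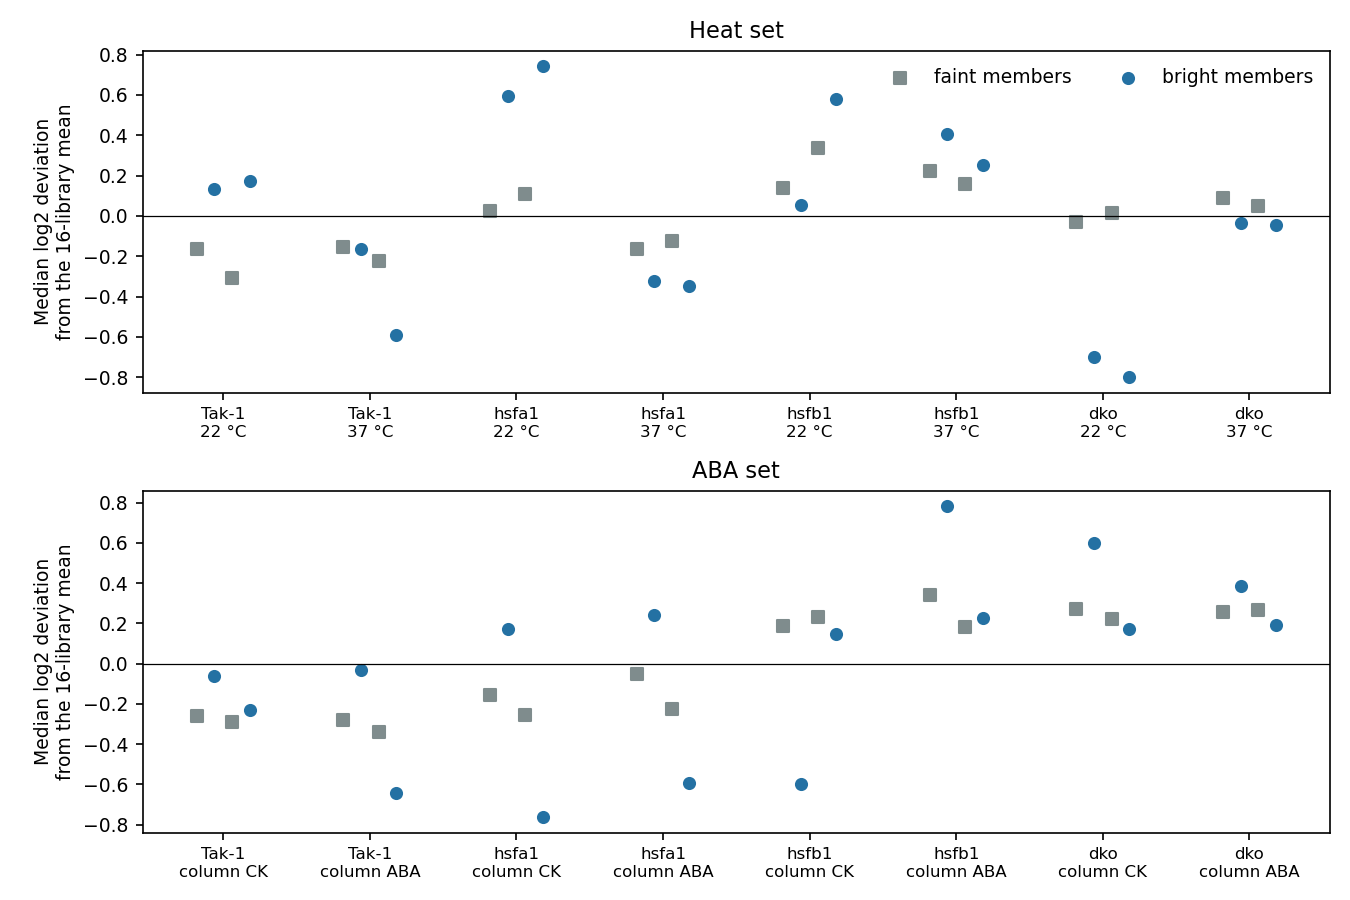
Median log2 deviation of faint (grey squares) and bright (blue circles) members from their mean over 16 libraries, one point a library, in the heat set (top) and the ABA set (bottom). Faint members stay between -0.34 and 0.34, while bright members range from -0.80 in a dko 22 °C library to 0.78 in an hsfb1 column ABA library.

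In the heat set the bright members were lowest in dko at 22 °C. Summed over their 159 heat regions, dko had 11100 and 10410 CPM at 22 °C and 18600 and 18540 CPM at 37 °C. Tak-1 had 21970 and 24920 CPM at 22 °C and 18870 and 12710 CPM at 37 °C, and hsfa1 29170 and 32220, then 15770 and 15370 CPM. The hsfb1 line had 20000 and 28500, then 26250 and 23640 CPM. Both dko libraries at 22 °C were below all other libraries. In dko 138 bright regions rose with heat, in Tak-1 137 fell and in hsfa1 158 fell by the edgeR test, and in hsfb1 7 fell (4.40%). Of all heat regions, the test called 13.3% higher with heat in dko. It called 13.1% lower in Tak-1, 20.5% in hsfa1 and 8.79% in hsfb1. The Tak-1 count was 1 without Tak-1 37 °C replicate 2 and 36 under total count scaling, and the hsfb1 count ranged from 0 to 29 over the alternatives, 29 being without hsfb1 22 °C replicate 1. The dko libraries at 22 °C also differed in the share of even counts over regions, with 0.536 and 0.564 against 0.497 to 0.508 in the other heat libraries and 0.531 to 0.633 in the ABA set. The part of this in the result was not tested.

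Over all classes, the members' responses to heat differed in direction from genotype to genotype, as did their share beside that of all heat regions. In Tak-1, 62 rose and 213 fell, where the edgeR test called 12.0% of all heat regions higher and 13.1% lower. Under total count scaling 117 rose and 51 fell, and without Tak-1 37 °C replicate 2 the counts were 34 and 9. In hsfa1, 55 rose and 341 fell (17.2% and 20.5% of all heat regions). In hsfb1, 21 rose and 60 fell, which is 2.76% and 7.87% of the members against 6.19% and 8.79% of all heat regions, and the members' median response was -0.02. With loess offsets these were 33 and 51. The sum of 81 fell to 41 without hsfb1 22 °C replicate 2, and to 30 and 25 without hsfb1 37 °C replicates 1 and 2. In dko, 273 rose and 46 fell (13.3% and 16.0%, 29.3% in either direction), and the sum of 319 fell to 199 without dko 22 °C replicate 2 and to 200 without dko 37 °C replicate 1. Of the 15 strong regions, 4 were called with heat in Tak-1, 2 in hsfb1, 3 in dko and 1 in hsfa1, where the test called 25.0%, 15.0%, 29.3% and 37.7% of all heat regions in either direction.

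Among faint members a few had clear heat responses. The member on chromosome 5 from 23306261 to 23306342 fell with heat in all 4 genotypes, from 2.30 and 1.52 to 0.658 and 0.550 CPM in Tak-1 and from 2.60 and 3.22 to 0.649 and 0.943 CPM in hsfb1. The log2 responses were -1.66 (SE 0.30, edgeR adjusted p = 0.00014) and -1.85 (SE 0.32, adjusted p = 0.00016). The member on chromosome 5 from 24534317 to 24534765 rose from 18.7 and 22.0 to 36.4 and 34.0 CPM in hsfb1 and from 14.4 and 15.0 to 22.0 and 20.9 CPM in Tak-1. Here the log2 responses were 0.79 (SE 0.11, adjusted p = 5.9e-06) and 0.54 (SE 0.11, adjusted p = 0.00045).

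Differences between heat responses were tested directly. The heat response of hsfb1 differed from that of Tak-1 in 0 members by edgeR and in 1 by DESeq2, with 188 of 762 members and 6994 of 40873 heat regions at an unadjusted p under 0.05 by edgeR. After adjustment edgeR called 0.00979% of all heat regions. Without Tak-1 22 °C replicate 1 the count was 142, without Tak-1 37 °C replicate 1 it was 64 and without hsfb1 22 °C replicate 1 it was 1. The response of dko differed in 241 members, 229 of them more positive in dko, where the test called 10.0% of all heat regions in either direction, 4.41% more positive and 5.62% more negative. Of the 229, 155 were bright. Without the bright regions 74 were more positive and 12 more negative.

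Within the ABA set, column ABA against column CK called 0 members in each genotype by edgeR and by DESeq2. With edgeR, 26 members of Tak-1 had an unadjusted p under 0.05, and the other counts were 33 for hsfa1, 229 for hsfb1 and 23 for dko. Over all 53390 regions the counts at that threshold were 952, 1440, 4286 and 1951. At an adjusted p under 0.05, edgeR called 0.00187% of all regions in hsfa1 and 0.0% in the other 3 genotypes. These libraries also chose the members, and the bright ones depend on hsfb1 column ABA replicate 1, so nothing is read from the hsfb1 count. Over the 18 strong members the summed level was 334.4 and 388.5 CPM in hsfb1 column CK and 422.6 and 375.3 CPM in column ABA. In dko it was 317.0 and 307.6, then 289.7 and 295.8 CPM. The 4 Tak-1 libraries had 19.8 to 25.7 CPM and the 4 hsfa1 libraries 14.4 to 18.1 CPM.

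Members that did not repeat at 22 °C in the heat set were found as well. The 3 with the lowest larger log2 difference of hsfb1 and dko from Tak-1 at 22 °C were 2 bright members and 1 faint member. The bright member on chromosome 3 from 517699 to 517846 had 52.0 and 85.0 CPM in Tak-1 at 22 °C, 42.7 and 61.3 CPM in hsfb1 and 23.8 and 19.3 CPM in dko. The bright member on chromosome 1 from 16418456 to 16418743 had 124.3 and 212.9, 110.2 and 148.0, and 51.9 and 53.6 CPM in the same order. Their log2 differences in dko were -1.67 (SE 0.20, edgeR adjusted p = 8.1e-07) and -1.68 (SE 0.21, adjusted p = 2.8e-06). The faint member on chromosome 3 from 13623671 to 13623822 had 109.1 and 148.8 CPM in Tak-1, 91.6 and 96.1 CPM in hsfb1 and 100.6 and 108.5 CPM in dko, in a heat region far wider than the member, from 13622207 to 13623836. At 37 °C the 2 bright members had log2 differences of 0.56 and 0.62 in hsfb1 (edgeR adjusted p = 0.083 and 0.077) and of 0.05 and 0.09 in dko.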

How the data were processed

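ATAC-seq was analysed in 32 Marchantia libraries, and the 8 Arabidopsis libraries of the series were not used. Per the submitters' processing notes, the tools include MACS2 2.2.7.1, Bowtie2 2.4.4, featureCounts and Subread 2.0.6, with no role or setting stated. The deposited values are raw counts per region, 1 table for each experiment. Genome build, peak pooling, and treatment of duplicates and of reads matching several places are not given in the sources used here. Where regions were called on given libraries, their set can favour those libraries. The members, classes and lists were chosen with earlier results of these data known.

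Each table was fitted with edgeR 4.0.16 in R 4.3.3 (limma 3.58.1): a mean per group, TMM scaling and the 2-sided quasi-likelihood F test, with Benjamini-Hochberg adjustment per contrast across the whole table and calls made under 0.05. TMM factors in the heat set ranged from 0.83, in Tak-1 22 °C replicate 2, to 1.05. The filterByExpr filter removed 0 regions. SE is the absolute log2 difference over the square root of F. D used plain CPM, and CPM in the text beyond D are TMM-scaled. Summed and per-library CPM carry no test. Regions had a median of 423 counts a library in the heat table and 342 in the ABA table. The script was tested on simulated data.

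Regions named had a mean of at least 50 counts and were the 6 members with the highest smaller D, the 6 highest and 3 lowest at 22 °C in hsfb1 and dko, and the 3 highest and 3 lowest called heat responses in Tak-1 and hsfb1 and interactions. The 2 members nearest each threshold on either side were also listed. The other strong members, and regions called in all 6 comparisons, were chosen after their values were seen. Gene lists and sequence features could not be read without an annotation on the tables' build. Alternatives were DESeq2 1.42.0, total count scaling, loess offsets, no filter, a replicate block, leaving out each library, other overlaps (any base, 80%), other thresholds and pseudocounts for D, and the rule on column CK or column ABA libraries alone. A fit with a library left out had 1 library in that group. A changed count can then come from lost power as well as from that library, and these cannot be told apart. Counts without bright members, and the rule with each library left out, were added after the data were seen. Replicate numbers were not treated as pairs in the main fit. Replicate differences correlated above 0.1 in 6 of 28 group pairs in the heat table and 15 of 28 in the ABA table. The correlations ranged from -0.46 to 0.32 and from -0.33 to 0.44. For the ABA table this does not show that the replicates were unpaired.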

Additional observations from a re-analysis of the deposited data

Results flagged for a closer look

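The heat response of dko differed from that of Tak-1, by the test of the difference itself, in 241 of the 762 heat regions of the members. The same test called 10.0% of all heat regions, and 155 of the 241 were bright. The members named for such a difference were these, with the log2 heat response of dko minus that of Tak-1. It was 2.01 for the bright member on chromosome 1 from 5765435 to 5765711, which had 32.3 and 35.7 CPM in dko at 22 °C and 71.8 and 70.0 CPM at 37 °C, against 101.7 and 109.2, then 74.4 and 35.0 CPM in Tak-1. It was 1.91 for the faint member on chromosome 3 from 10910454 to 10910563 and 1.88 for the bright member on chromosome 5 from 4760947 to 4761134. It was -4.50 for the faint member on chromosome 2 from 15866889 to 15867196, -2.76 for the faint member on chromosome 7 from 17257842 to 17258186 and -1.49 for the strong member on chromosome 2 from 10184402 to 10184794. In the last, Tak-1 had 0.551 and 0.646 CPM at 22 °C and 1.82 and 1.14 CPM at 37 °C, while dko had 27.5 and 28.6, then 24.3 and 23.7 CPM. With 2 libraries in each group, no test for a sample that stands apart was made.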

How the results depend on the processing

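Counts of members are given in the order hsfb1, dko and dko against hsfa1 (higher), then hsfa1 (either direction), at 22 °C and then 37 °C, then heat responses in Tak-1, hsfa1, hsfb1 and dko and the dko interaction (either direction). With a D of at least 0.6 there were 108 members in 89 heat regions, with counts of 74, 45, 33, 31; 48, 36, 26, 3; 13, 26, 9, 17; and 8. The rule kept 692 members on column CK alone and 1212 on column ABA alone, so the next counts are not out of the 762 heat regions. The rule on column CK alone gave 173 for hsfa1 at 22 °C, 124 for hsfb1 at 37 °C, 105, 178 and 154 for heat in Tak-1, hsfa1 and dko, and 28 for the interaction. On column ABA alone the first 4 of these were 598, 572, 537 and 721, with 313 for dko at 37 °C, 139 for heat in hsfb1 and 494 for the interaction. Total count scaling gave 95 for dko and 30 for dko against hsfa1 at 37 °C, 168 for heat in Tak-1 and 53 in hsfb1. It moved the median of all heat regions by 0.21 log2 for hsfb1 at 22 °C and 0.16 for dko. Loess offsets gave 266 for hsfb1 at 22 °C. Without bright members the counts were 198 for hsfb1 at 37 °C, 138, 238 and 181 for heat in Tak-1, hsfa1 and dko, and 86 for the interaction. DESeq2 called 1 hsfb1 interaction. Leaving out 1 library gave 69 to 450, 60 to 210, 42 to 86 and 8 to 399 at 22 °C, and 50 to 403, 38 to 240, 16 to 106 and 4 to 14 at 37 °C. For heat it gave 43 to 303, 309 to 429, 25 to 118 and 199 to 349, for the interactions 0 to 142 (hsfb1) and 205 to 286 (dko), and 0 in the ABA contrasts. The rule itself gave 550 members without hsfb1 column ABA replicate 1 and 1375 without hsfb1 column CK replicate 1. With the replicate block, 392 members were higher in hsfb1 and 154 in dko at 22 °C, and the block moved no count by over 1.5 times. Over 126 single-region results and all alternatives, 13 values changed sign. With a library left out, the member at 517699 on chromosome 3 ranged from -0.29 to 0.47 log2 for dko against Tak-1 at 37 °C and from -0.032 to 0.049 against hsfa1 (-0.027 with total count scaling, -0.021 with loess offsets). The member at 16418456 on chromosome 1 ranged from -0.72 to 0.053 for hsfb1 at 22 °C (0.19 with loess offsets) and from -0.27 to 0.55 for dko at 37 °C. The member at 13623671 on chromosome 3 had 0.029 for hsfb1 at 22 °C with loess offsets, and at 37 °C ranged from -0.082 to 0.23 for hsfb1 and -0.28 to 0.035 for dko. For dko against hsfa1 at 37 °C, the strong members at 10458133 on chromosome 2 and 19607282 on chromosome 4 ranged from -0.022 to 0.29 and from -0.047 to 0.28. The cause of these changes was not tested.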
